A study of Mus musculus with 4 samples.

Results

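The genes described here are matrix-degrading metalloproteinases and their tissue inhibitors in mouse bone-marrow-derived macrophages: the matrix metalloproteinases Mmp8, Mmp9, Mmp12, Mmp13, Mmp14 and Mmp19, the related membrane protease Adam8, and the inhibitors Timp1, Timp2 and Timp3. They were taken by name from the gene-level table, each from a probe annotated to 1 symbol, and are 10 of the 19938 genes that the table measured in this way. All 10 had exactly 1 such probe, so no choice between probes entered their values. The genes were chosen with earlier results of these data known. Their counts and medians beside those of all genes are therefore description only. The macrophages were grown from marrow of female BalbC mice with L929-conditioned medium, which supplies the macrophage growth factor M-CSF, and no genotype or age is given in the sources used here. Groups were LPS/zVAD/Nec-1, LPS/zVAD, LPS and an untreated control; every LPS group received 10 ng/ml of lipopolysaccharide (a ligand of the receptor TLR4), both zVAD groups 50 µM of this caspase inhibitor, and the first group also 30 µM of necrostatin-1 (Nec-1), an inhibitor of the kinase RIPK1. The design asks which inflammatory changes depend on that kinase. Each condition had 1 Affymetrix array, so no spread between replicates exists, no p-value was computed, and precision is limited by how few arrays there are. Effects of zVAD or Nec-1 without LPS, and of Nec-1 without zVAD, were not analysed here.

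Metalloproteinases are zinc proteases that cut collagens, elastin and other matrix proteins, and that also shed or trim cytokines, chemokines and receptors. Most are made as inactive precursors and are activated by removal of a propeptide, by plasmin, furin or another metalloproteinase. TIMPs bind the active site and block it. In macrophages these genes are known for matrix breakdown in inflamed tissue and for the passage of cells through it.

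Signals are given on the log2 scale as deposited, on which a difference of 1 is 2-fold. The median of all values, log2 6.47, served as the floor under which a signal was not separated from background, and 12203 genes reached it on at least 1 array. Of the 10 genes, 9 passed this filter and Timp3 did not. The 4 arrays had medians of 6.41 to 6.52 over all probes and highest signals of 14.55 to 14.63. Of 10 macrophage markers, 9 were measured and all 9 passed the floor; Adgre1 stood at 12.50 to 13.31 and Lyz2 at 13.93 to 14.05 over the 4 arrays. A signal belongs to 1 probe, so levels of different genes are not on a common scale. The summed signals of marker lists given below are weighted towards probes of high signal and include genes under the floor. In a bulk sample, fewer cells that express a gene and less RNA per cell cannot be told apart.

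Transcription of several metalloproteinase genes is known to be driven through AP-1 sites close to their start. Promoter sequences were found in RefSeq (GRCm38.p6) for 8 of the 10 genes, in 9 windows of 250 bases before the start. Mmp9 and Mmp19 had no window, so neither was searched. The letters TGANTCA (AP-1, read on both strands) lay in 6.75% of all 32851 such windows, TATAAA (the TATA box, read on the gene's strand) in 7.59% and TTCNNNGAA (the GAS element, both strands) in 7.02%. Among the 9 windows, Mmp13 held an AP-1 match, TGACTCA, from base -35 to -29 and a TATA match from -16 to -11, and the second of the 2 annotated Mmp12 starts had an AP-1 match, TGAGTCA, from -44 to -38. No window of these genes held the GAS letters, which says only that these letters are not in this stretch. The last 150 bases before the start are shown for Mmp13, Mmp14 and Timp1, the genes above control by 2-fold or more on every LPS array. They are also shown for Mmp8, which was lower with zVAD, and for the second Mmp12 start. That start also matches TGANTCA, in a gene with a smaller LPS ratio than Mmp13. Capitals mark the AP-1 and TATA matches. The stretches are chr9:7272364-7272513, plus strand for Mmp13, chr14:54431448-54431597, plus strand for Mmp14, chrX:20870016-20870165, plus strand for Timp1, chr9:7558279-7558428, plus strand for Mmp8 and chr9:7347224-7347373, plus strand for Mmp12, all lying just upstream of the annotated start of the gene.
Mmp13: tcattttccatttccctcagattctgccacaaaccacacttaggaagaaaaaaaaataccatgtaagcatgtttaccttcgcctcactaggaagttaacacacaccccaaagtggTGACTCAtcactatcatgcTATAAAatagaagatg
Mmp14: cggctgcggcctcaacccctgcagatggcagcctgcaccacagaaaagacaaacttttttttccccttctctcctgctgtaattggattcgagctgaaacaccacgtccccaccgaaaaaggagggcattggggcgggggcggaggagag
Timp1: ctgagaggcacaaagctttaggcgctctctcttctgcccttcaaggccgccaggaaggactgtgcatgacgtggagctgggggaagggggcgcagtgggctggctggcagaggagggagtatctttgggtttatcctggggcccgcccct
Mmp8: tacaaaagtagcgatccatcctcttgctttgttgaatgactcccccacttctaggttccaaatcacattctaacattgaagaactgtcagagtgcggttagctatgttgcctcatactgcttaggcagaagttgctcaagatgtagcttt
Mmp12, second start: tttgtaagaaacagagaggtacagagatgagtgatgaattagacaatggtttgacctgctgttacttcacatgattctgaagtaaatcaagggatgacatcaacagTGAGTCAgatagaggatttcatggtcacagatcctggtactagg

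**Figure D1:**
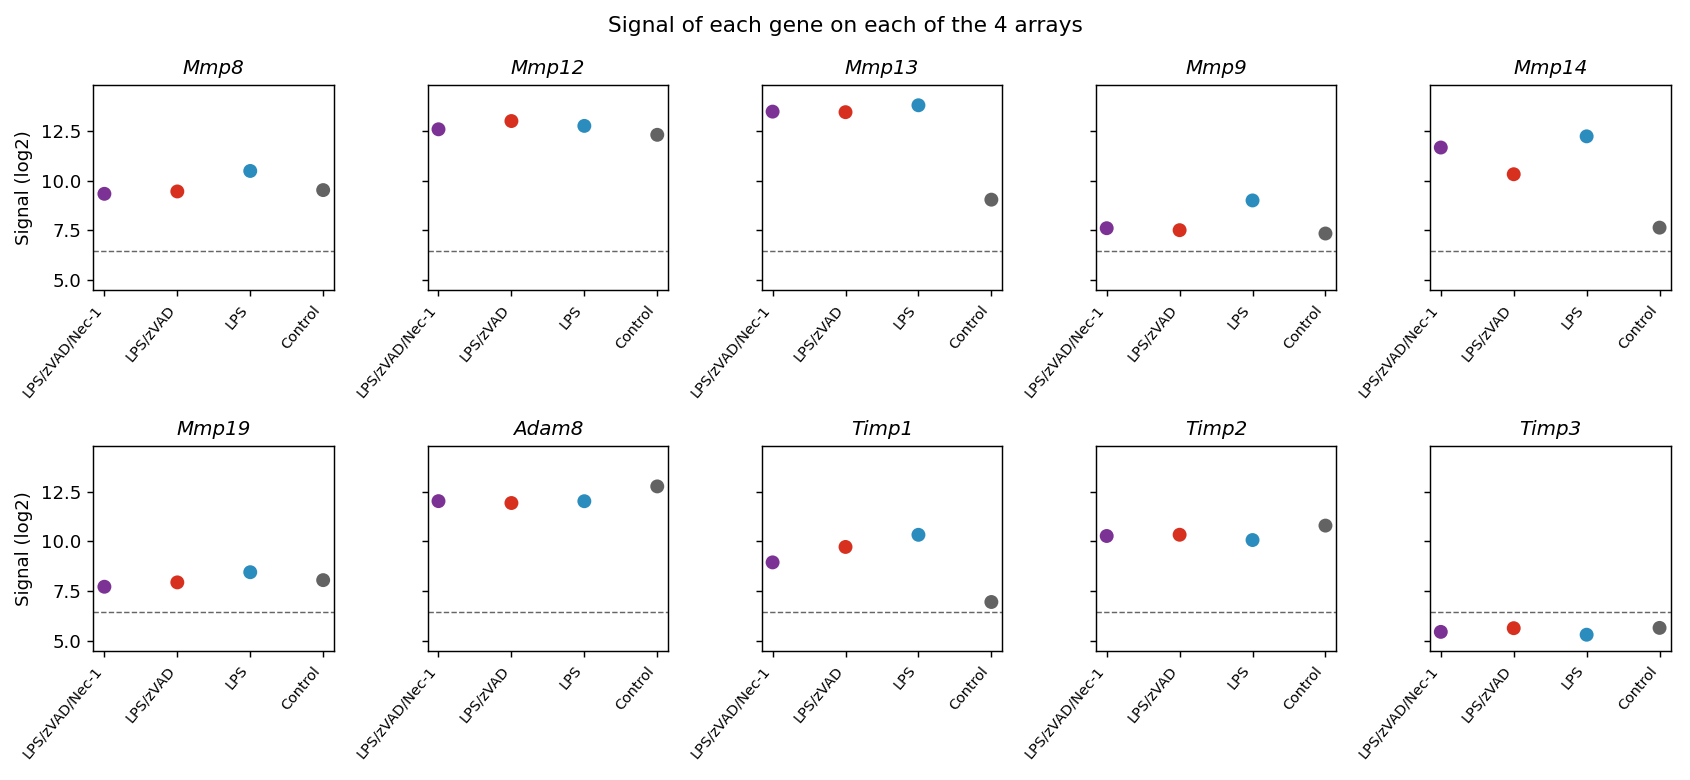
Signal (log2, y axis) of each of the 10 genes on the LPS/zVAD/Nec-1, LPS/zVAD, LPS and control arrays, 1 point per array; the dashed line is the floor at 6.47. Mmp13, Mmp14 and Timp1 stand far above control on all 3 LPS arrays, Mmp8 and Mmp9 are highest on the LPS array, and Timp3 lies under the floor on every array.

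The LPS array was set against the control array to describe what LPS did to these genes. Of the 10 genes, 4 were higher by 2-fold or more and 0 were lower: the collagenase Mmp13, the membrane protease Mmp14, the inhibitor Timp1 and the gelatinase Mmp9. Over the 12203 filtered genes, 8.24% were higher by 2-fold or more in this comparison and 7.2% lower. The median log2 ratio of the 10 genes was 0.70, against -0.12 for all filtered genes. Counts and medians of the 10 genes, here and below, include Timp3, which is not among the filtered genes. Adam8, Timp2, Mmp12, Mmp19 and Mmp8 stayed under 2-fold, and Timp3 was under the floor.

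Among the collagen- and elastin-degrading enzymes, Mmp13, the main interstitial collagenase of rodents, had the highest ratio. Its signal was log2 13.46 with LPS/zVAD/Nec-1, 13.43 with LPS/zVAD, 13.78 with LPS and 9.04 in control. The 3 LPS arrays lay within 0.35 of each other and far above control. With LPS it was 26.6-fold higher than in control (log2 ratio 4.74), the 57th highest of the 12203 genes. The LPS signals are close to the ceiling of the arrays, which can shrink a ratio. Mmp12, the macrophage elastase and its neighbour on the chromosome, stood at 12.57, 12.99, 12.75 and 12.30 in the same order of arrays. All 4 arrays were high, and the log2 ratio of LPS to control was 0.45, a size that 41.1% of the filtered genes reached in either direction. Mmp8, the collagenase that neutrophils store in granules, stood at 9.34, 9.46, 10.48 and 9.52. The LPS array was highest and the other 3 lay close together. Its ratio to control of 0.96 is 1.94-fold, just under the threshold, and it passed when arrays were centred on their medians (1.06) or scaled by cyclic loess (1.02).

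Mmp9, the gelatinase B that cuts denatured collagen and basement membrane collagen, stood at 7.61 with LPS/zVAD/Nec-1, 7.51 with LPS/zVAD, 9.01 with LPS and 7.35 in control. As for Mmp8, the LPS array alone was high. It was 3.16-fold higher with LPS than in control (log2 ratio 1.66), a size that 5.97% of genes reached in either direction.

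Mmp14, a membrane-anchored metalloproteinase that cuts collagen at the cell surface and activates the precursors of Mmp2 and Mmp13, had signals of 11.66 with LPS/zVAD/Nec-1, 10.32 with LPS/zVAD, 12.22 with LPS and 7.64 in control. Control was lowest, and LPS/zVAD was the lowest of the LPS arrays. With LPS it was 23.9-fold higher than in control (log2 ratio 4.58), the 65th highest ratio. Mmp2, a gelatinase that Mmp14 is known to activate, stood at 7.05, 7.00, 7.02 and 6.69. Mmp19, a secreted enzyme that cuts basement membrane proteins, stood at 7.72, 7.94, 8.45 and 8.06, and its LPS ratio was 0.40. Adam8, a membrane protease of leukocytes that sheds surface proteins, stood at 12.02, 11.92, 12.01 and 12.76. Its 3 LPS arrays lay together under control, with a log2 ratio of -0.74 for LPS to control.

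The inhibitors differed among themselves. Timp1, the secreted inhibitor that is known to bind Mmp9, stood at 8.95 with LPS/zVAD/Nec-1, 9.72 with LPS/zVAD, 10.33 with LPS and 6.96 in control, the last only 0.49 above the floor. The 4 arrays were well apart, with control lowest. With LPS it was 10.3-fold higher than in control (log2 ratio 3.37), the 127th highest ratio. Timp2, which takes part in the activation of Mmp2 on Mmp14 as well as inhibiting the enzymes, stood at 10.27, 10.33, 10.07 and 10.79, with a ratio of LPS to control of -0.72. It was highest in control. Timp3, the inhibitor that stays bound to matrix and also blocks Adam17, stood at 5.46, 5.64, 5.32 and 5.66, all under the floor, so its differences carry no order.

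**Figure D2:**
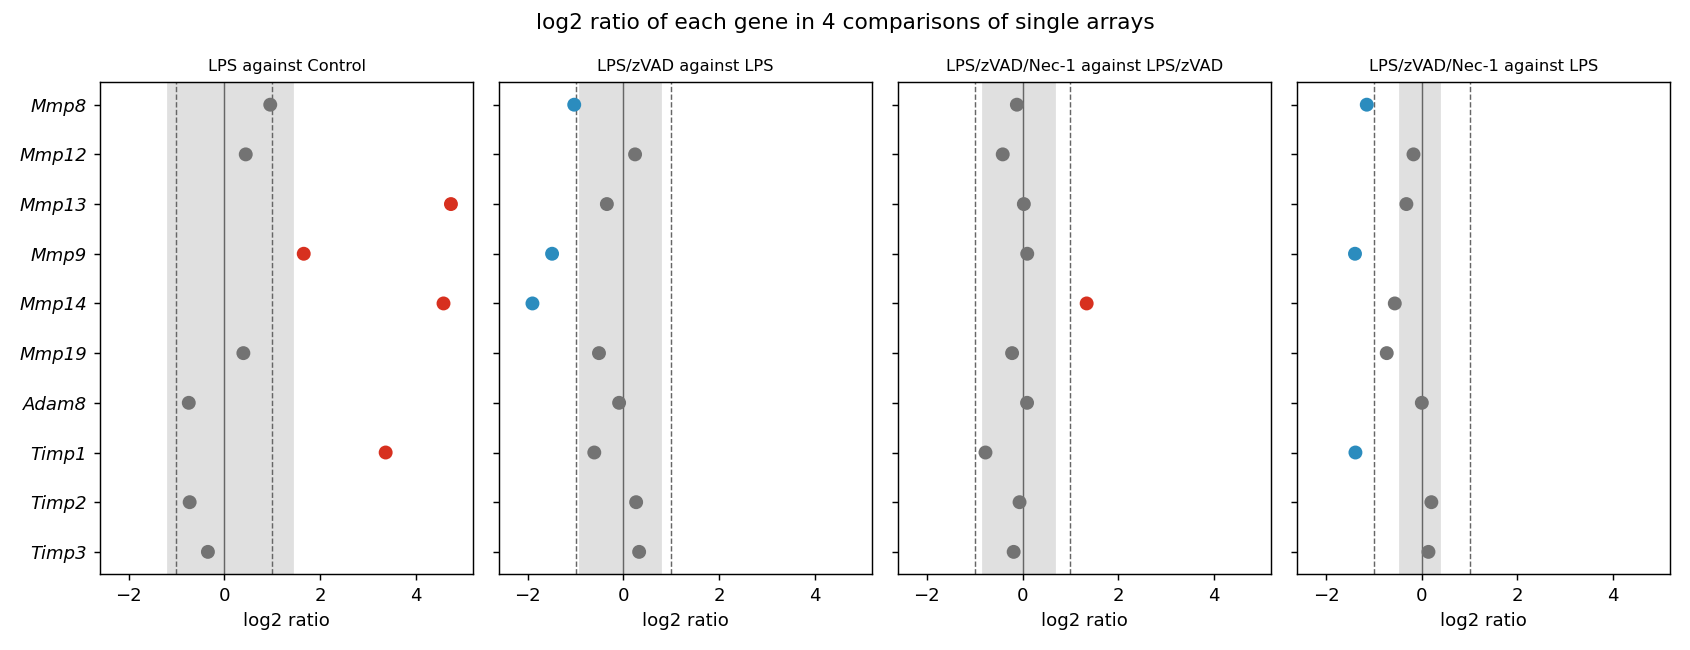
log2 ratio (x axis) of each of the 10 genes in 4 comparisons of single arrays, the first-named array over the second; red points are higher and blue points lower by 2-fold or more, dashed lines mark 2-fold, and the grey band holds the central 90% of the 12203 filtered genes. Mmp13, Mmp14, Timp1 and Mmp9 lie outside the band for LPS against control, Mmp14, Mmp9 and Mmp8 lie below it for LPS/zVAD against LPS, and Mmp14 alone lies above it for LPS/zVAD/Nec-1 against LPS/zVAD.

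With LPS/zVAD against LPS, the question was how caspase inhibition altered the response. Here 3 of the 10 genes were lower by 2-fold or more and 0 higher: Mmp14, Mmp9 and Mmp8. Over all filtered genes, 3.59% were lower and 3.25% higher by that size. The median log2 ratio was -0.43 for the 10 genes and -0.05 for all filtered genes. Mmp14 was 3.73-fold lower with LPS/zVAD (log2 10.32, against 12.22 with LPS), the 40th lowest ratio of 12203. It was still 6.4-fold above control. Mmp9 was 2.81-fold lower (log2 7.51, against 9.01 with LPS), and Mmp8 2.04-fold lower (9.46, against 10.48), and both then stood within 0.17 of their control signals. Mmp8 was at the threshold itself: its log2 ratio of -1.03 became -0.93 after quantile normalization and -0.89 after cyclic loess.

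The collagenase Mmp13 was under 2-fold. Its log2 ratio of LPS/zVAD to LPS was -0.35, a size that 41.5% of genes reached in either direction. Mmp12 had a ratio of 0.24 and Mmp19 one of -0.51, while Adam8 was at -0.09. Of the inhibitors, Timp1 was at -0.61, Timp2 at 0.27 and Timp3, under the floor, at 0.33. Past 2-fold were 3 of the 6 matrix metalloproteinases, with Mmp8 at the threshold itself, and 0 of the 2 inhibitors above the floor. Since 3.59% of filtered genes were lower and 3.25% higher, 0 of 2 does not set the inhibitors apart from the enzymes.

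The LPS/zVAD/Nec-1 array was compared with LPS/zVAD because Nec-1 blocks RIPK1 kinase activity. Mmp14 was the one gene of the 10 past 2-fold, at 2.53-fold higher with LPS/zVAD/Nec-1 than with LPS/zVAD (log2 11.66, against 10.32), and 0 were lower. Over all filtered genes, 1.14% were higher and 3.32% lower by that size, and Mmp14 had the 37th highest ratio. Mmp9 (log2 7.61, against 7.51 without Nec-1) and Mmp8 (9.34, against 9.46) had ratios of 0.10 and -0.12. The genes lower with zVAD therefore lay in different places once Nec-1 was present. For Mmp14 the LPS/zVAD/Nec-1 signal was above the midpoint of the LPS/zVAD and LPS signals (11.27), whereas for Mmp9 (midpoint 8.26) and Mmp8 (midpoint 9.97) it was below. These comparisons share the LPS/zVAD array, so an error of that 1 array would move the ratio to LPS and the ratio with Nec-1 in opposite directions.

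Timp1 was lower again with Nec-1 present, at log2 8.95 against 9.72 with LPS/zVAD, a ratio of -0.77 that is under 2-fold and that 8.83% of genes reached in either direction. Mmp12 had a ratio of -0.41 and Mmp19 one of -0.22. The signals of Mmp13, Adam8 and Timp2 with Nec-1 lay within 0.10 of those without it.

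The LPS/zVAD/Nec-1 array was the one most like the LPS array, and few genes separated the pair. Only 0.541% of filtered genes were lower and 0.0738% higher by 2-fold or more with both inhibitors than with LPS alone. Of the 10 genes, 3 were lower and 0 higher: Mmp9, Timp1 and Mmp8. Mmp9 was 2.63-fold lower (log2 7.61, against 9.01 with LPS; 25th lowest ratio of 12203), Timp1 2.61-fold lower (8.95, against 10.33; 27th lowest) and Mmp8 2.21-fold lower (9.34, against 10.48; 43rd lowest). Mmp14 was at -0.56 and Mmp19 at -0.73, and Mmp13, Mmp12, Adam8 and Timp2 were within 0.32 of their LPS signals. The median log2 ratio of the 10 genes was -0.44, against -0.02 for all filtered genes.

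Against control, 3 of the 10 genes, Mmp13, Mmp14 and Timp1, were higher by 2-fold or more on each of the 3 LPS arrays, as were 5.15% of filtered genes, and 0 were lower on each, as were 4.76% of filtered genes. These arrays share the control and are not replicates of one another. Mmp13 was 21.4-fold higher with LPS/zVAD/Nec-1 and 21.0-fold with LPS/zVAD than in control. Mmp14 was 16.2-fold and 6.4-fold higher, and Timp1 3.97-fold and 6.78-fold higher. Both comparisons with control had 3 genes higher and 0 lower, beside 6.85% of filtered genes higher and 7.68% lower with LPS/zVAD/Nec-1, and 8.79% higher and 10.7% lower with LPS/zVAD.

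**Figure D3:**
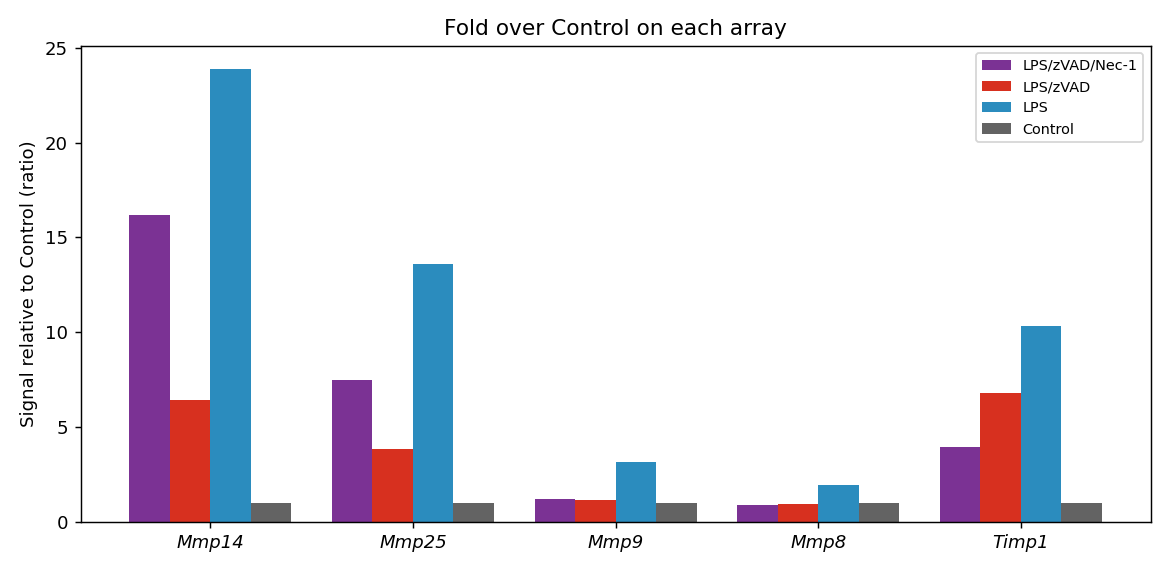
Signal relative to control (linear ratio, y axis; control is 1) of Mmp14, Mmp25, Mmp9, Mmp8 and Timp1 on the LPS/zVAD/Nec-1, LPS/zVAD, LPS and control arrays, 1 bar per array. Mmp14 and Mmp25 are lowest of the LPS arrays with LPS/zVAD, Mmp9 and Mmp8 are near control on both zVAD arrays, and the bars of Timp1 are 3.97, 6.78 and 10.3 on the LPS/zVAD/Nec-1, LPS/zVAD and LPS arrays.

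Of 17 other listed matrix metalloproteinases, 16 were measured and 9 reached the floor on at least 1 array. LPS against control had 2 of these 9 higher by 2-fold and 0 lower, beside 8.24% and 7.2% of filtered genes. LPS/zVAD against LPS had 0 higher and 1 lower, beside 3.25% and 3.59%. The 2 higher with LPS were Mmp25 and Mmp10. With low signals raised to the floor the count was 1, Mmp25, since the control signal of Mmp10 lay under it. Mmp25, a membrane-anchored enzyme of leukocytes, stood at 9.41 with LPS/zVAD/Nec-1, 8.46 with LPS/zVAD, 10.28 with LPS and 6.51 in control, the last just above the floor. The order of its arrays was that of Mmp14. It was 13.6-fold higher with LPS than in control and 3.53-fold lower with LPS/zVAD than with LPS, and its ratio with Nec-1 (0.95) was just under 2-fold. After subtracting each gene's mean over the 4 arrays, Mmp25 and Mmp14 differed by a root mean square of 0.41. Mmp10, the stromelysin 2 that cuts many matrix proteins, ran the other way, at 6.71, 8.05, 7.12 and 6.03. It was highest with LPS/zVAD and was 2.53-fold lower with LPS/zVAD/Nec-1 than with LPS/zVAD. Its LPS signal was at least 1.57-fold above control, counted from the floor.

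Of the 10 genes, 3 (Mmp8, Mmp12 and Mmp13) lie in a run of 10 neighbouring metalloproteinase genes on chromosome 9 in the RefSeq annotation of GRCm38.p6. In order these are Mmp13, Mmp12, Mmp1b, Mmp3, Mmp1a, Mmp10, Mmp8, Mmp27, Mmp20 and Mmp7. Only 5 of the 10 reached the floor on any array. The neighbours Mmp13 and Mmp12 had log2 ratios of 4.74 and 0.45 for LPS against control, and -0.35 and 0.24 for LPS/zVAD against LPS. The neighbours Mmp10 and Mmp8 had ratios of 0.93 and -1.03 for LPS/zVAD against LPS. Mmp27, next to Mmp8, was at 0.39 in that comparison and at -0.87 for LPS/zVAD/Nec-1 against LPS/zVAD. For LPS/zVAD against LPS, the ratios were of opposite sign in both pairs, under 2-fold in the first.

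**Figure D4:**
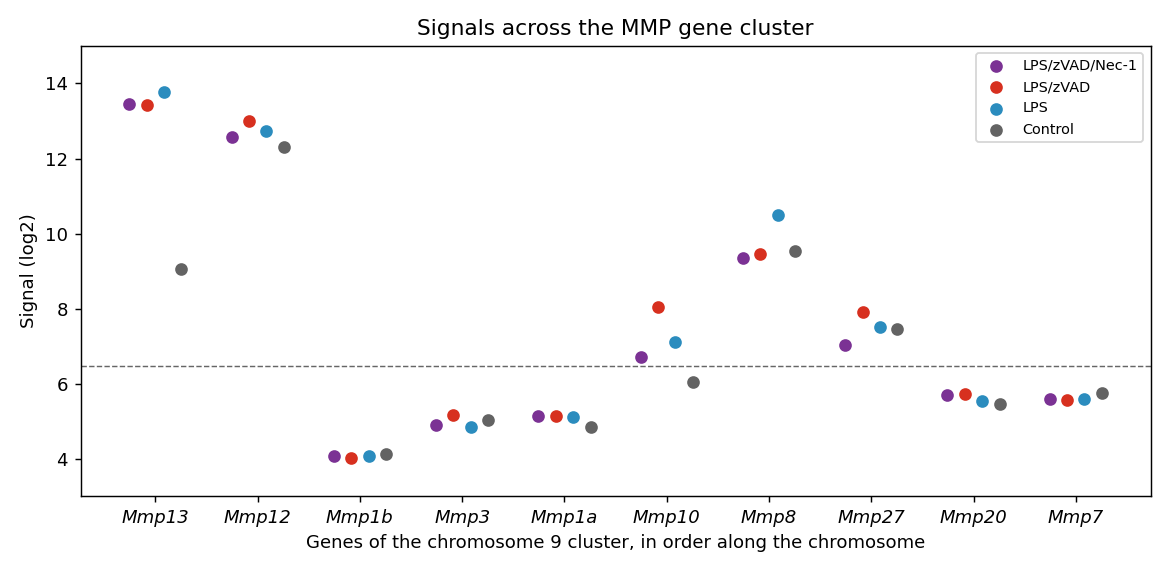
Signal (log2, y axis) of the 10 metalloproteinase genes of the chromosome 9 cluster, in order along the chromosome (x axis), on the LPS/zVAD/Nec-1, LPS/zVAD, LPS and control arrays, 1 point per array; the dashed line is the floor at 6.47. Mmp13, Mmp12, Mmp10, Mmp8 and Mmp27 reach the floor, and the other 5 genes lie under it on every array.

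Genes that act with these enzymes were examined as lists. The counts of this and the following lists stand beside the shares of all filtered genes. These were 8.24% higher and 7.2% lower for LPS against control, and 3.25% higher and 3.59% lower for LPS/zVAD against LPS. Of 14 regulators of metalloproteinases, 10 passed the floor, and with LPS against control 4 were higher and 1 lower by 2-fold. Lcn2, a partner that binds Mmp9 in human neutrophils, had a log2 ratio of 3.48, Thbs1, a thrombospondin that binds the enzymes, one of 2.50, and Rhbdf2, which brings Adam17 to the cell surface, one of 1.85. Furin, the convertase that cuts the propeptide of Mmp14, had one of 1.49. Lrp1, a receptor that clears the enzymes from outside the cell, had one of -1.15. With LPS/zVAD against LPS, Furin was higher again (log2 12.56, against 11.49), whereas Thbs1 (12.32, against 13.53) and Lcn2 (11.83, against 12.86) were lower. Lcn2 was at 12.00 with LPS/zVAD/Nec-1. Timp4 lay under the floor on every array.

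Of 19 other ADAM and ADAMTS proteases, 18 were measured and 9 passed the floor, and 0 were past 2-fold with LPS. Adam17, which releases membrane-bound tumour necrosis factor, stood at 11.55, 11.83, 11.81 and 11.95 with LPS/zVAD/Nec-1, LPS/zVAD, LPS and in control. Adamts1, a secreted protease of proteoglycans, was higher with LPS/zVAD than with LPS (log2 8.74, against 6.89), and lower with LPS/zVAD/Nec-1 (7.22) than with LPS/zVAD.

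The plasmin system, which activates metalloproteinase precursors outside the cell, had 5 measured genes past the floor. Plau, the urokinase activator of plasminogen, stood at 10.71 with LPS/zVAD/Nec-1, 13.14 with LPS/zVAD, 9.46 with LPS and 12.78 in control. It was lowest with LPS, where Mmp14, Mmp9, Mmp8 and Timp1 were highest. Serpinb2, an inhibitor of urokinase, stood at 7.16, 8.18, 9.55 and 5.92 in the same order, so its arrays were ordered as those of Timp1. With LPS it was at least 8.48-fold above control, counted from the floor. All 14 cathepsins and related proteases passed the floor. Of the 14, 1 was higher with LPS (Ctsh, at a log2 ratio of 1.01), near the 8.24% of filtered genes. For LPS/zVAD against LPS, 0 were past 2-fold.

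Of 21 matrix genes and substrates, 16 passed the floor, and LPS against control had 4 of them higher by 2-fold and 0 lower. Vcan, the proteoglycan versican, was at least 21.5-fold higher, and Tnc, the matrix glycoprotein tenascin C, at least 11.9-fold, both counted from the floor. With LPS/zVAD against LPS, Tnc (log2 7.79, against 10.04), Dcn, the proteoglycan decorin (6.66, against 8.53), and Tgfbi (10.01, against 11.51) were lower, and Lamc1, a laminin chain, was higher (11.24, against 9.47). Tnc was higher with LPS/zVAD/Nec-1 (9.28) than with LPS/zVAD, and Lamc1 lower (9.85).

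Of 21 listed factors known to act at metalloproteinase promoters, 19 passed the floor. With LPS against control 6 were higher, among them Batf at 3.18, Cebpb at 2.30 and the AP-1 subunit Junb at 1.88, and 1 was lower, the ETS factor Etv5 at -1.87. With LPS/zVAD against LPS, Egr1 (log2 9.99, against 7.13) and the AP-1 subunit Jun (11.93, against 10.57) were higher and 0 were lower. In control Egr1 stood at 7.78 and Jun at 11.44, both above their LPS signals. Both were lower with LPS/zVAD/Nec-1 than with LPS/zVAD, at ratios of -1.79 and -1.18. The AP-1 subunit Fosl2 stood at 8.43, 9.15, 9.84 and 9.17 with LPS/zVAD/Nec-1, LPS/zVAD, LPS and in control, and was lower with both inhibitors than with LPS alone.

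Mmp8 and Mmp9 are also granule genes of neutrophils, so markers of those cells were read beside them. Of 12 neutrophil markers, 10 passed the floor, while Cxcr2 and Retnlg lay under it on every array. The summed linear signal of the 12 was 4828 with LPS/zVAD/Nec-1, 4516 with LPS/zVAD, 5753 with LPS and 4041 in control, so the LPS array was highest, as for Mmp8 and Mmp9. Against control, 2 of the 12 were higher with LPS (S100a9 at a log2 ratio of 1.12 and Ly6g at 1.03). For LPS/zVAD against LPS, 0 were past 2-fold and the median of all 12 was -0.26. Their part in the ratios of Mmp8 and Mmp9 was not tested, nor was that of the next lists. Of 10 stromal markers, Lum, Pdgfra and Postn lay under the floor on every array, and the summed signal of all 10 was 1294, 1137, 1368 and 1160 in the same order of arrays. Without Dcn, the sum of the other 9 was 1105, 1036, 999 and 1108, so the high LPS value came from that gene, and the median log2 ratio of all 10 for LPS against control was -0.18. Of 8 osteoclast markers, whose cells also carry Mmp9 and Mmp14, Calcr, Dcstamp and Oscar lay under the floor. The summed signal of the 8 was 2024, 4659, 3012 and 1361, highest with LPS/zVAD. On the 3 LPS arrays most of it came from Acp5, at log2 10.20, 11.61, 10.96 and 7.94 over the 4 arrays. In control, the sum without Acp5 was 1115. Without Acp5 and Atp6v0d2 the sum of the other 6 was 591, 635, 646 and 741, highest in control. The median log2 ratio for LPS/zVAD against LPS was -0.07 for all 8 and 0.33 for the 5 past the floor. For LPS/zVAD/Nec-1 against LPS/zVAD, 3 of these 5 were lower by 2-fold and 0 higher, beside 3.32% and 1.14% of filtered genes. They were Atp6v0d2 (-1.78), Acp5 (-1.42) and Ctsk (-1.19, or -0.84 with low signals raised to the floor).

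Genes with the most similar pattern were sought for the 5 genes whose signals spanned at least 1 on the log2 scale, as the root mean square difference over the 4 arrays once each gene's own mean was subtracted. Over 4 arrays such likeness is a description. Nearest to Mmp14 were Upp1, Tnc and Scimp, at 0.23, 0.25 and 0.26, and 1 gene of 11541 lay within 0.25 of it. Nearest to Mmp13 were Traf1, Ddx60 and Klrk1, at 0.09, 0.12 and 0.13. Nearest to Timp1 were F10, Car2 and Il1f9, at 0.16, 0.19 and 0.20. Mmp8 was nearest to Orai2, Cd302 and Sntb1, at 0.03, 0.09 and 0.10, with 84 genes within 0.25. Mmp9 was nearest to Acpp, Ccr3 and Ppbp, at 0.12, 0.12 and 0.14. Control signals of Acpp, Ccr3, Car2, Il1f9, Klrk1, Scimp and Tnc lay under the floor, so their place in these orders is not settled. Acpp also lay under it with LPS/zVAD/Nec-1 (6.43) and LPS/zVAD (6.07), and so was above it on the LPS array alone. Mmp8 and Mmp9 differed from each other by 0.26, and Mmp8 and Mmp14 by 1.61.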

How the data were processed

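Total RNA of 4 macrophage cultures was hybridised to Affymetrix arrays, 1 per condition, grouped by sample titles. The authors deposited gene-level log2 signals from Affymetrix Expression Console, which the labels and the submitters' processing notes name; no label states the scale, and the range of the values is that of log2. The sources used here do not give background correction, normalization between arrays, genome build or treatment times. The members and gene lists were chosen with earlier results of these data known.

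Of 35556 probes, 21789 had 1 symbol in the platform annotation, 1621 several and 12146 none. These gave 19938 genes, each represented by its probe of highest mean over the 4 arrays. Genes whose highest signal reached the median of all values (log2 6.47) were filtered genes. Comparisons were differences of log2 signals, called at 2-fold, with no test, since each condition had 1 array. Named were all 10 genes, up to 4 genes of each list past 2-fold per comparison, markers whose absence is stated, and the 3 nearest genes by pattern. Lrp1 was named as the lower gene of its list, beyond these 4. Mmp2, Mmp27 and Adam17, and those followed into further comparisons, were named after their values were seen. The arithmetic of ratios and calls was checked on simulated arrays with large set differences, which says nothing of how reliable a call is. Scalings used limma 3.58.1 in R 4.3.3; the rest used Python 3.11.15 and pandas 2.3.3. Alternatives covered scaling, probe choice, threshold and floor. Promoters came from RefSeq tables of GRCm38.p6.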

Additional observations from a re-analysis of the deposited data

How the results depend on the processing

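Scaling (centring on medians, quantile, cyclic loess) kept every count of the 10 genes past 2-fold within 1.5 times its value as deposited. Probe choice and raising low signals to a floor could not change these counts. Each of the 10 genes had 1 probe, and only Timp3, under 2-fold throughout, lay under the floor. Other thresholds kept some counts within that range and not others. For LPS against control, 4 of the 10 genes were past 3-fold, as at 2-fold. The counts that moved further follow. At 1.5-fold, 7 of the 10 genes were past it for LPS against control (5 higher and 2 lower). For LPS/zVAD/Nec-1 against LPS/zVAD there were 2 (1 higher and 1 lower). LPS/zVAD against control, a comparison added after seeing the data, had 5 (4 higher and 1 lower). At 3-fold, 1 was past it for LPS/zVAD against LPS, 0 for LPS/zVAD/Nec-1 against LPS/zVAD and 0 for LPS/zVAD/Nec-1 against LPS. In these the threshold itself was changed. The shares of all filtered genes past 1.5-fold or 3-fold were not computed, so these counts have no background beside them. Of 420 recomputed ratios of the 10 genes, 416 kept their side of 2-fold and 0 of those past it changed sign. The other 4 were Mmp8, with values given beside it above. The 420 include the probe and floor settings, which could not move a ratio across 2-fold, so only the scalings bear on this. Centring moved the median log2 ratio of all filtered genes for LPS against control to -0.01, against -0.12 as deposited. For LPS/zVAD against LPS, 396 filtered genes were higher and 438 lower as deposited, and 462 and 312 after cyclic loess. For LPS/zVAD against control they were 1073 and 1304 as deposited, and 1287 and 906 after cyclic loess. Among other named genes (alternatives added after seeing the data), Ctsh for LPS against control was at 0.97 after quantile normalization, Lcn2 for LPS/zVAD against LPS at -0.94 after cyclic loess, and Mmp10 for LPS against control at 0.65, against 1.09 as deposited, with signals raised to the floor, which left 1 of the other matrix metalloproteinases past 2-fold in place of 2. Ctsk for LPS/zVAD/Nec-1 against LPS/zVAD was at -0.84, against -1.19 as deposited, with signals raised to the floor. No paired analysis was possible because each condition had 1 array. Signal under the floor limits Timp3 on all arrays.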
